A study of Mus musculus with 8 samples.

Results

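Ly6C-high monocytes (MCs) were compared with Ly6C-low MCs in the blood of T2DM (db/db) mice across all 16486 genes of the deposited expression table. The comparison used 2 of the 8 RNA-Seq libraries analysed here, 1 of each subset, and left out no gene. For each gene the log2FC was the deposited log2 value in db/db Ly6C-high MCs minus the value in db/db Ly6C-low MCs, so a log2FC of 1 stands for a 2-fold higher level in Ly6C-high MCs. With 1 library a side, db/db mice have no replicate spread, no error and no p-value, and genes are described by the size of their log2FC.

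The study set MC subsets of diabetic mice beside those of control mice. CT mice were male C57/BL6 mice of wild type genotype without treatment, T1DM mice were of the same strain and received streptozotocin (STZ), a toxin of the insulin-producing beta cells, at 50 mg/kg a day for 5 days from 8 weeks of age, and T2DM mice were db/db mice, which carry a homozygous mutation of the leptin receptor in every tissue. All groups ate chow and were bled at 20 to 22 weeks of age. CD11b+ Ly6G- blood cells were sorted by flow cytometry on Ly6C, RNA was pooled from 5 mice a group, and the pools were sequenced in duplicate, of which 2 libraries a subset in CT mice and 1 a subset in T1DM and db/db mice were analysed here. The second db/db library of each subset was not analysed here, and the strain background of the db/db mice is not given in the sources used here. Since db/db mice differ from CT mice in genotype from birth and both CT libraries of a subset may come from 1 pool, CT p-values below measure only the spread between libraries, which may be technical. CT libraries were run on another sequencer than T1DM and db/db libraries. Sequencer and mouse group therefore cannot be told apart wherever CT values are set beside db/db values below.

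Ly6C-high MCs are the classical monocytes of the mouse. They leave the bone marrow through the chemokine receptor CCR2, circulate briefly and enter inflamed tissue, where they become macrophages or dendritic cells (DCs). Ly6C-low MCs are the nonclassical, patrolling monocytes that crawl along the vessel wall, arise from Ly6C-high MCs and need the nuclear receptor NR4A1. A sort on CD11b, Ly6G and Ly6C does not name a lineage, so CD11b+ Ly6C-low cells of other types, such as B cells and natural killer (NK) cells, can fall into the low gate.

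The sort label was checked first on its own gene. Ly6c2, which encodes the Ly6C antigen, was 8.58 in db/db Ly6C-high MCs and 3.53 in db/db Ly6C-low MCs, a log2FC of 5.05. In CT mice Ly6c2 was 8.61 and 8.56 in Ly6C-high MCs and 4.07 and 2.69 in Ly6C-low MCs, and in T1DM mice 8.72 and 3.20. Every Ly6C-high library was above every Ly6C-low library. The paralog Ly6c1 was 5.01 and 0.69 in db/db mice, a log2FC of 4.32. These entries share sequence (23.7% of the 31-base words of Ly6c2 and 46.8% of those of Ly6c1 occur in other genes), so reads could be split between them.

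Across all genes, 1864 (11.3%) were more than 2-fold higher and 2929 (17.8%) more than 2-fold lower in db/db Ly6C-high MCs, and 47.7% were higher by any amount. The median log2FC was -0.03 and its SD over genes 1.27. Much of the lower tail came from weakly detected genes, since among the 5266 genes with a mean deposited value of at least 5 in the db/db libraries 643 (12.2%) were above 1, only 230 (4.37%) were below -1, and 65.0% were higher. The same count gave 1819 (11%) above 1 and 2775 (16.8%) below -1 in T1DM mice, and 1346 (8.16%) and 2773 (16.8%) for the mean of the CT libraries. The db/db shares of 11.3% and 17.8% are the background over all genes for list counts below. For lists of well detected genes the shares of 12.2% and 4.37% are the closer background. List counts given with equal sums (all libraries scaled to 1 sum) have another background, 1033 genes above 1 and 4337 below -1 of all 16486.

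The only error available is the CT spread between libraries. Over genes with a mean of at least 5, the difference between both CT libraries of a subset stayed within 0.54 (Ly6C-high) and 0.55 (Ly6C-low) for 95% of genes, and within 2.41 and 2.29 for genes with a mean under 1. A 2-fold difference of a weakly detected gene is therefore inside the spread of single libraries. Depth per gene is unknown, as the values hold no counts. On the linear scale the libraries summed to between 838696 and 1090019, with every Ly6C-high library above every Ly6C-low library. Scaling all libraries to 1 sum moved the median db/db log2FC of all genes to -0.39 and the split at 2-fold to 1033 higher and 4337 lower. Lists whose median changed sign with this choice are named where they appear.

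In CT mice, where each subset had 2 libraries, limma called 346 genes higher (2.1%) and 235 lower (1.43%) in Ly6C-high MCs with a log2FC past 1 in either direction and a Benjamini-Hochberg adjusted p below 0.01. None of these calls was kept when any 1 CT library was left out, when limma was run without its variance trend (lowest adjusted p 0.0167) or with the replicate number as a block (0.0157), so each rests on all 4 libraries and on that setting, here and for every limma value below. CT and db/db mice share no library. Of the CT-higher genes, 252 (72.8%) were above 1 in db/db mice and 3 were below -1, and they made up 13.5% of all db/db genes above 1. Of the CT-lower genes, 210 (89.4%) were below -1 in db/db mice and 1 was above 1, and they made up 7.17% of all db/db genes below -1. Over 5228 genes with a mean of at least 5 in the 8 libraries, the log2FC of db/db and CT mice correlated with Pearson's r = 0.82, and that of db/db and T1DM mice with r = 0.83. Genes are not independent replicates, and subset purity and sequence composition are shared across libraries, so no p-value is given.

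**Figure D1:**
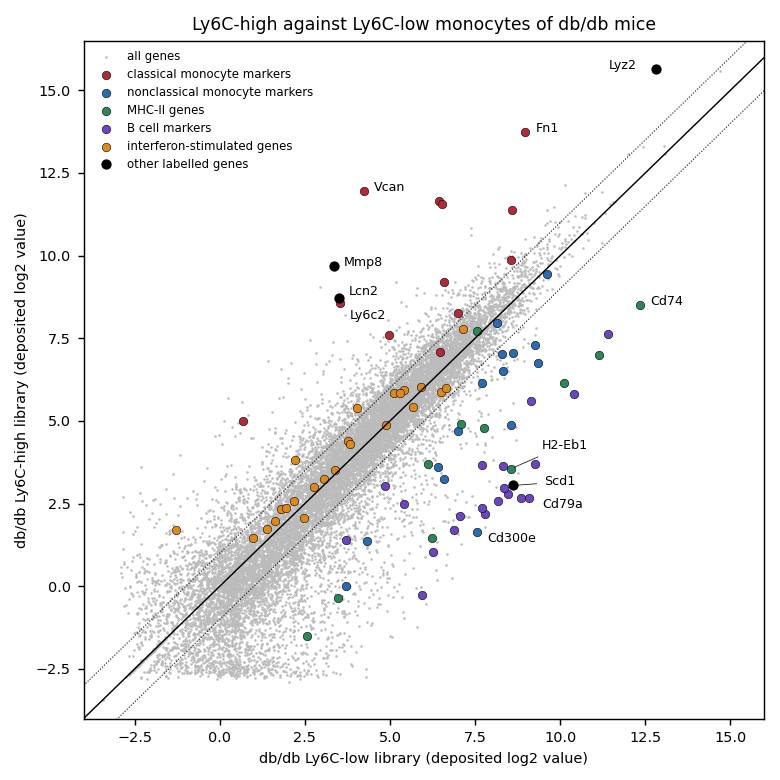
Deposited log2 value of each of the 16486 genes in the db/db Ly6C-low library (x axis) and the db/db Ly6C-high library (y axis), 1 library each. The solid line marks equal values and the dotted lines a 2-fold difference; classical monocyte markers (red) lie above, B cell markers (purple) and 10 of 11 MHC-II genes (green) below, and most interferon-stimulated genes (orange) near the solid line.

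Classical monocyte genes formed the upper edge of the comparison. Of 12 classical markers, all were higher in db/db Ly6C-high MCs and 11 were past 2-fold, with a median log2FC of 3.56 (2.98 in CT and 3.77 in T1DM mice, and -0.03 over all genes in db/db mice). Limma called 9 of the 12 higher in CT mice. The median stayed at 3.20 with equal sums. Because these markers define the sorted subset, they check the sort and are no finding about diabetes.

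Vcan, which encodes the matrix proteoglycan versican and lies at chr13:89655309-89743027 (GRCm38), had the largest log2FC of the well detected genes. It was 11.97 in db/db Ly6C-high and 4.23 in db/db Ly6C-low MCs, a log2FC of 7.74 or 214-fold. The CT libraries held 9.49 and 9.53 in Ly6C-high and 3.66 and 3.41 in Ly6C-low MCs, and the T1DM libraries 9.23 and 3.34. In CT mice the log2FC of Vcan was 5.98 ± 0.11 (SE, n = 2 per subset), with a limma adjusted p-value of 0.00202. The db/db Ly6C-high library held the highest Vcan value of the 8, and the db/db Ly6C-low library the highest of the 4 Ly6C-low values.

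Other markers of the classical subset had smaller log2FC than Vcan. Fn1, encoding fibronectin, was 13.74 and 8.97 (log2FC 4.77, CT 3.36, limma adjusted p = 0.000561). F13a1, encoding the A subunit of coagulation factor XIII, was 11.58 and 6.52 (log2FC 5.06, CT 5.13, limma adjusted p = 0.000561). Ccr2, the receptor for egress from the marrow, was 11.37 and 8.57 (log2FC 2.80, CT 3.08, limma adjusted p = 0.00168). For 5 of the 12 the db/db log2FC was below all CT pairings and T1DM, as for Chil3 (5.22, CT 6.16, T1DM 5.44). For 3 of the 12 it was above all of them. Of all genes, 23.3% lay below and 25.4% above in this way. Plac8 was the farthest below, with 7.08 and 6.46 in db/db mice, a log2FC of 0.62 against 1.63 in CT and 2.04 in T1DM mice, and its db/db Ly6C-high value was below those of the other Ly6C-high libraries (8.44 to 8.63).

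Among the 25 genes with the largest positive log2FC at a mean of at least 5, limma called 19 higher in CT mice. After Vcan came Mmp8 (6.35), a collagenase stored in granules, Cd177 (6.13), a surface protein of neutrophils and some monocytes, Chil3 (5.22), a chitinase-like lectin, and Lcn2 (5.21), a siderophore-binding protein. Tnfaip2 (4.78), Sgms2 (4.53), a sphingomyelin synthase, Plcb1 (4.06), a phospholipase C, and Cd93 (4.03), a lectin-like surface receptor, followed. Msr1 (3.24), the class A scavenger receptor, Tgfbi (3.24), a secreted matrix protein, C3 (3.44), the central complement protein, and Idh1 (3.28), the cytosolic isocitrate dehydrogenase, were also among them. The remainder were F13a1, Ly6c2, Fn1, Hopx, Aoah, Mmp19, Lilra6, Ms4a4c, Emp1, C1galt1c1, Arhgef37 and Slfn1, with log2FC from 3.04 to 5.06.

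Lcn2 and Emp1 stood apart from this group. Lcn2 was 8.71 in db/db Ly6C-high MCs and 3.50 in db/db Ly6C-low MCs, whereas the CT libraries held 3.17 and 1.90 (high) and 1.24 and 2.89 (low) and the T1DM libraries 2.12 and 0.09. The db/db Ly6C-high value was 5.21 above the next library of the 8, and in CT mice the log2FC of Lcn2 was 0.47 ± 0.80 (SE, n = 2 per subset, limma adjusted p = 0.704). Emp1, a membrane protein, was 8.05 and 4.93 in db/db mice, and 2.29 to 4.48 elsewhere. Both db/db libraries were above all others for Emp1, so its log2FC of 3.12 (CT 1.55, T1DM 0.56) came with a higher level in both subsets. The difference of these log2FC between mouse groups was not tested.

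Granule protein genes, which neutrophil precursors and classical monocytes express, gave 12 of 15 above 1 and 2 below -1, with a median of 2.30. Mmp8 was 9.70 and 3.35, and Cd177 was 9.07 and 2.94. Lyz2, encoding lysozyme, was 15.64 and 12.83, a log2FC of 2.81. Prtn3, encoding the serine protease proteinase 3, was 4.54 and -0.13 in db/db mice, a log2FC of 4.67 against 2.79 in CT and 2.59 in T1DM mice. Retnlg ran the other way, at -1.55 and 3.30 (log2FC -4.84), while Mpo (3.83 and 2.28), the myeloperoxidase gene, was above 1 at a low level. Limma called 7 of the 15 higher in CT mice, among them Mmp8, Cd177, Chil3 and Lyz2.

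S100 genes encode small calcium-binding proteins, of which S100A8 and S100A9 form the secreted alarmin calprotectin. All 8 in the table were higher in db/db Ly6C-high MCs and 6 were above 1, with a median of 1.76 against 0.48 in CT and 1.57 in T1DM mice. S100a8 was 6.90 and 3.88 in db/db mice, a log2FC of 3.02. In CT mice S100a8 was 1.14 and 1.15 in Ly6C-high and 1.61 and 2.07 in Ly6C-low MCs (log2FC -0.70, limma adjusted p = 0.179), and in T1DM mice it was 2.49 and -0.30. Both db/db libraries held more S100a8 than any other library. S100a9 was 5.52 and 4.68, with 0.04 to 3.55 elsewhere, and S100a11 was 9.12 and 7.28, with 6.99 to 7.97 elsewhere. Neutrophil markers as a list had a median log2FC of -0.15 in db/db mice, and their sum is not independent of S100a8 and S100a9. The 8 neutrophil markers in the table, of which S100a8 and S100a9 are 2, summed to 196 on the linear scale in db/db Ly6C-high and 127 in db/db Ly6C-low MCs against 31.4 to 107 in the other libraries, 2 of the 8 were above 1 and 3 below -1, and the defining markers Ly6g, Camp and Stfa2l1 were not in the table. Their part in the result was not tested.

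**Figure D2:**
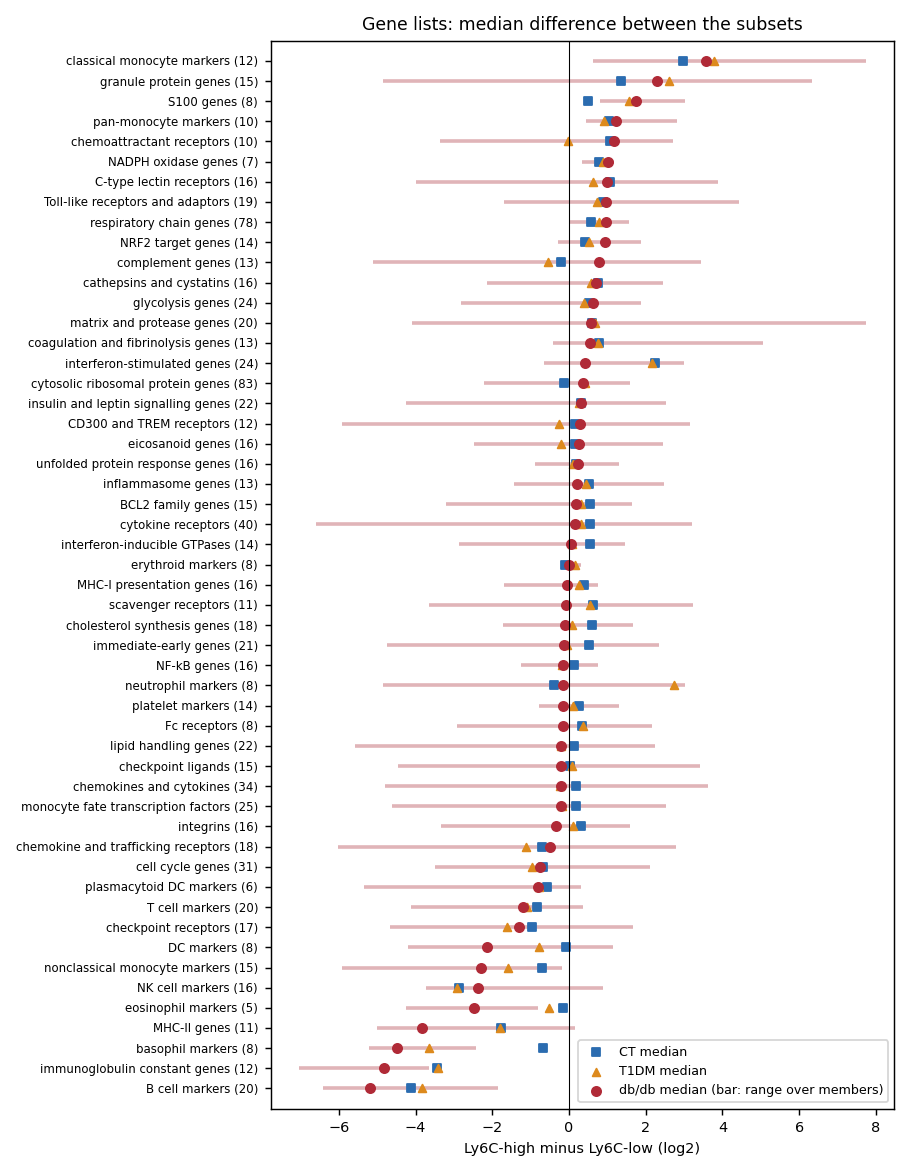
Median log2FC (Ly6C-high minus Ly6C-low, x axis) of each gene list in db/db (red circle, 1 library a subset), T1DM (orange triangle, 1 library a subset) and CT mice (blue square, mean of 2 libraries a subset), with a bar over the range of the list's members in db/db mice and the number of members in brackets. Classical markers lie at the top (3.56) and B cell markers at the bottom (-5.18); the db/db median of the interferon-stimulated genes (0.41, or 0.05 with equal sums) lies left of CT and T1DM, and that of the MHC-II genes (-3.84) further left still. Medians near 0 can change sign with equal sums, as they did for 9 of the 52 lists.

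Nonclassical monocyte genes were lower throughout. All 15 markers were lower in db/db Ly6C-high MCs and 13 were below -1, with a median of -2.30, against -0.71 in CT and -1.60 in T1DM mice. Limma called 4 of the 15 lower in CT mice (Cd300e, Cd36, Fabp4 and Fcgr4). Cd300e, an activating receptor of Ly6C-low MCs at chr11:115051917-115066676, was 1.64 in db/db Ly6C-high and 7.57 in db/db Ly6C-low MCs, a log2FC of -5.92, with -3.94 in CT (limma adjusted p = 0.00384) and -5.40 in T1DM mice. The scavenger receptor gene Cd36 was 4.88 and 8.54 (log2FC -3.66, CT -2.29, limma adjusted p = 0.00876). Ace, encoding angiotensin-converting enzyme, was 6.75 and 9.34 in db/db mice (log2FC -2.59), with a log2FC of -0.43 in CT mice.

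Both db/db libraries stood at an edge of their subset on one scale or the other. The 15 markers summed on the linear scale to 1720 in db/db Ly6C-high MCs, below the 2650 to 3469 of the other Ly6C-high libraries, and to 4468 in db/db Ly6C-low MCs, inside the 4176 to 5457 of the other Ly6C-low libraries. Abundant genes carry such sums, and the median log2 value of the 15 was 6.14 in db/db Ly6C-high MCs, inside the 5.77 to 6.90 of the other Ly6C-high libraries, and 8.14 in db/db Ly6C-low MCs, above the 7.62 to 7.88 of the other Ly6C-low libraries. Cx3cr1, the fractalkine receptor that is used to mark Ly6C-low MCs, was 7.97 and 8.14 in db/db mice (log2FC -0.17), and was higher in Ly6C-high MCs of CT (0.83) and T1DM (0.91) mice. Itgal, the alpha chain of the integrin LFA-1, was 9.45 and 9.63 (log2FC -0.18). In bulk libraries, fewer cells of a type and less RNA per cell cannot be told apart, for these markers as for every gene below.

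Transcription factors of monocyte fate split by subset. Of 25 factors, 5 were above 1 and 10 below -1. Cebpa was 6.48 and 4.38 (log2FC 2.10, CT 2.63, limma adjusted p = 0.00591), Cebpd was 5.71 and 3.74 (1.97, CT 2.18, limma adjusted p = 0.0097), and both encode C/EBP factors of the granulocyte and classical monocyte programme. Maf (1.91), a bZIP factor of macrophage differentiation, and the weakly detected Cebpe (2.53) were also above 1. On the other side Nr4a1, which Ly6C-low MCs need, was 7.03 and 8.28 in db/db mice (log2FC -1.25) against 0.18 in CT and -0.88 in T1DM mice. Pou2f2 (7.29 and 9.26, log2FC -1.97), Hes1 (-0.01 and 3.70, -3.71), a Notch target, and Tcf7l2 (3.87 and 6.03, -2.16) were lower in db/db Ly6C-high MCs. Myc was 3.24 and 6.59 (log2FC -3.35, CT -3.50, limma adjusted p = 0.00554). Bach2, a factor of B cells, was 1.96 and 6.57 (log2FC -4.61) and moved beside the B cell markers given below. Spi1, the gene of the myeloid master regulator PU.1, was 9.21 and 8.33 (log2FC 0.88, CT 1.06). The study chose such factors on these samples, so the list is not independent evidence.

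MHC class II genes encode the chains that present peptides to CD4 T cells, the invariant chain that guides their assembly and traffic (Cd74) and the transactivator that switches them on (Ciita). In db/db mice 10 of the 11 were below -1, with a median of -3.84 against -1.77 in CT and -1.81 in T1DM mice. Limma called 7 of the 11 lower in CT mice. H2-Eb1 was 3.56 in db/db Ly6C-high and 8.55 in db/db Ly6C-low MCs, a log2FC of -5.00, the lowest of the 11. The CT libraries held 6.42 and 6.29 (high) and 8.69 and 8.63 (low), with a log2FC of -2.31 ± 0.07 (SE, n = 2 per subset, limma adjusted p = 0.00345), and the T1DM libraries 6.99 and 9.19. The db/db Ly6C-low value of H2-Eb1 was just under the other Ly6C-low libraries, while the db/db Ly6C-high value was far below the other Ly6C-high libraries.

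H2-Aa was 7.00 and 11.13 in db/db mice (log2FC -4.13, CT -1.77, limma adjusted p = 0.00211, T1DM -1.81). H2-Ab1 was 6.16 and 10.11 (log2FC -3.95, CT -1.72, limma adjusted p = 0.00211, T1DM -1.55). Cd74 was 8.52 and 12.36 (log2FC -3.84, CT -1.54, limma adjusted p = 0.00139, T1DM -1.45). For these chains the db/db Ly6C-high library was the lowest of the 8. Ciita was 4.90 and 7.10 (log2FC -2.20), against -0.71 in CT and -0.64 in T1DM mice. H2-DMb1, a chain of the peptide-loading chaperone H2-DM, was 3.70 and 6.13 (log2FC -2.42) against 0.24 in CT and 0.45 in T1DM mice. Its partner H2-DMa was 7.71 and 7.56, a log2FC of 0.15 that turned negative with equal sums. Other genes hold 31.4% of the 31-base words of H2-DMb1 and 36.4% of those of its copy H2-DMb2, so the split between them is uncertain.

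As a group, 7 of the 11 MHC-II genes lay below all 5 other values (the 4 pairings of a CT Ly6C-high with a CT Ly6C-low library, and T1DM), 6 of them by more than 1. Over all genes 23.3% lay below and 25.4% above all 5 in this way, and 3.66% and 2.83% by more than 1. This distance was not tested. The 11 genes summed to 862 on the linear scale in db/db Ly6C-high MCs against 2328 to 3221 in the other Ly6C-high libraries, and to 9668 in db/db Ly6C-low MCs against 6834 to 8846 in the other Ly6C-low libraries. MHC-II expression is shared by B cells and DCs, whose markers are given below. H2-Ea-ps, the entry for an MHC-II alpha chain that is a pseudogene in the C57BL/6 reference, was 4.41 in db/db Ly6C-high and 8.70 in db/db Ly6C-low MCs and 0.75 to 2.93 in the 6 CT and T1DM libraries. The db/db libraries thus held this transcript well above the others, the MHC haplotype of these mice is not given in the sources used here, and its part in the MHC-II values was not tested. The study named MHC-II among its themes, so the list is not independent evidence.

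The promoter windows of H2-Eb1 and H2-Aa are shown because these chains were among the MHC-II genes with the largest log2FC, and they hold the CCAAT box that lies in the conserved regulatory unit of MHC-II promoters. Each is the 250 bases before the RefSeq transcript start, 5′ to 3′ on the strand of the gene, at chr17:34305617-34305866 (plus strand) and chr17:34287824-34288073 (minus strand) of GRCm38.p6, with CCAAT or its reverse complement ATTGG in capitals.
H2-Eb1: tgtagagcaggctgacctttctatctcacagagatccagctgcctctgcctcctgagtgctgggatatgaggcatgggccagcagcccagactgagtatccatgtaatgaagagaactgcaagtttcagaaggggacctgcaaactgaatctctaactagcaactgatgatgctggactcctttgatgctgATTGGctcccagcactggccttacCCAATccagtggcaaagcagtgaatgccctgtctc
H2-Aa: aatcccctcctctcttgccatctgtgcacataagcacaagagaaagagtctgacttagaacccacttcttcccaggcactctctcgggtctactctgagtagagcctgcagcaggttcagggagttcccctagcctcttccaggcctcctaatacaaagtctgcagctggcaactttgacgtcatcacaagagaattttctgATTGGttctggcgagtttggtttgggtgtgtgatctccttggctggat
The matches begin 59 and 35 bases before the start of H2-Eb1 and 48 bases before that of H2-Aa. CCAAT on either strand was found in all 8 MHC-II promoters present in the sequence table, in 33.9% of its 32851 promoters and in 40.1% of the promoters of genes measured here. CTAGCAAC on either strand was in 3 of the 8 (H2-Eb1, H2-Eb2 and H2-Ob) and in 1.13% of promoters. A match describes letters in a window and is not evidence of binding.

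Interferon-stimulated genes (ISGs) are switched on by type I interferon through transcription factors that include STAT2 and IRF9, and encode antiviral effectors such as the OAS, MX and IFIT proteins. In db/db mice 20 of 24 were higher in Ly6C-high MCs, but only 3 were above 1 and none below -1, with a median of 0.41. With equal sums the median was 0.05 and 13 of 24 were higher, so the direction of the list depends on the scaling. In CT and T1DM mice the medians were 2.25 and 2.17, and limma called 9 of the 24 higher in CT mice. The 3 above 1 in db/db mice were Irf7 (1.37), a factor that amplifies interferon production, Ifi27l2a (1.61) and the chemokine gene Cxcl10 (2.99), which was weakly detected at 1.70 and -1.30.

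Oasl2, a 2′-5′ oligoadenylate synthetase-like gene at chr5:114896926-114912245, was 4.32 and 3.82 in db/db mice, a log2FC of 0.50. The CT libraries held 8.03 and 7.87 in Ly6C-high and 4.78 and 5.11 in Ly6C-low MCs, a log2FC of 3.00 ± 0.15 (SE, n = 2 per subset, limma adjusted p = 0.00551), and the T1DM libraries 8.27 and 4.90. Both db/db values were below every CT and T1DM library of either subset. Mx1, a dynamin-like antiviral GTPase, was 4.88 and 4.87 (log2FC 0.00, CT 2.39, limma adjusted p = 0.00735, T1DM 2.30). Oas3 was 4.41 and 3.78 (log2FC 0.63, CT 2.25, limma adjusted p = 0.00354, T1DM 2.25).

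For 22 of the 24 ISGs the db/db log2FC lay below all 5 CT and T1DM values, and for 13 by more than 1, against 23.3% and 3.66% of all genes. The difference between mouse groups was not tested. The ISGs summed on the linear scale to 814 in db/db Ly6C-high MCs against 2749 to 2940 in the other Ly6C-high libraries, and to 689 in db/db Ly6C-low MCs against 912 to 1096 in the other Ly6C-low libraries. The smaller subset difference in db/db mice therefore came with a lower level in Ly6C-high MCs above all. CT libraries were run on another sequencer than db/db libraries, and T1DM libraries on the same one. Of 14 interferon-inducible GTPases, another interferon-driven family, 1 was above 1 (Gbp7, 1.45) and 3 below -1 (Gbp8, Gbp4 and Tgtp2), with a median of 0.04 that became -0.32 with equal sums. Oas1a and Ifit3 share 68.8% and 61.8% of their 31-base words with other genes, Tgtp2 and Gbp8 90.5% and 31.1%, so their values are uncertain.

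The promoters of Isg15 and Ifit1, an ubiquitin-like modifier and an RNA-binding antiviral protein, are shown because their windows hold matches to the letter pattern of the interferon response element. They are the 250 bases before the RefSeq start at chr4:156200819-156201068 (minus strand) and chr19:34640639-34640888 (plus strand) of GRCm38.p6, with GAAA, any 2 bases and GAAA again, or TTTC, any 2 bases and TTTC on the other strand, in capitals, where overlapping matches run together.
Isg15: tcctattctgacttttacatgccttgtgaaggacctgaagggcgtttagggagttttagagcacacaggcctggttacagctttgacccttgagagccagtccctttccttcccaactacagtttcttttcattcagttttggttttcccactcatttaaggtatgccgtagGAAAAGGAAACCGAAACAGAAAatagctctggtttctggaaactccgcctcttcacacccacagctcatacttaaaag
Ifit1: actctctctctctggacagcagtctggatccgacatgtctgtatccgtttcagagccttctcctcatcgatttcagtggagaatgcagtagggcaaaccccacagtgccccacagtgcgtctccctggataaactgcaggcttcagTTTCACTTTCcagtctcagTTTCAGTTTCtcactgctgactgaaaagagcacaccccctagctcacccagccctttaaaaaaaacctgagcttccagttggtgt
The 3 overlapping matches of Isg15 begin 78, 72 and 66 bases before the start, and those of Ifit1 104 and 85. The pattern was found in 9 of 17 ISG promoters in the table (Isg15, Oas3, Oas1a, Cxcl10, Ifit1, Ifit3, Rsad2, Stat2 and Bst2), in 0 of 8 MHC-II promoters and in 2.98% of all promoters. A match to it is not evidence of binding. In db/db mice Isg15 was 1.45 and 0.97 and Ifit1 was 2.33 and 1.79, against 4.20 to 4.44 (Isg15) and 4.78 to 5.28 (Ifit1) in the other Ly6C-high libraries.

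**Figure D3:**
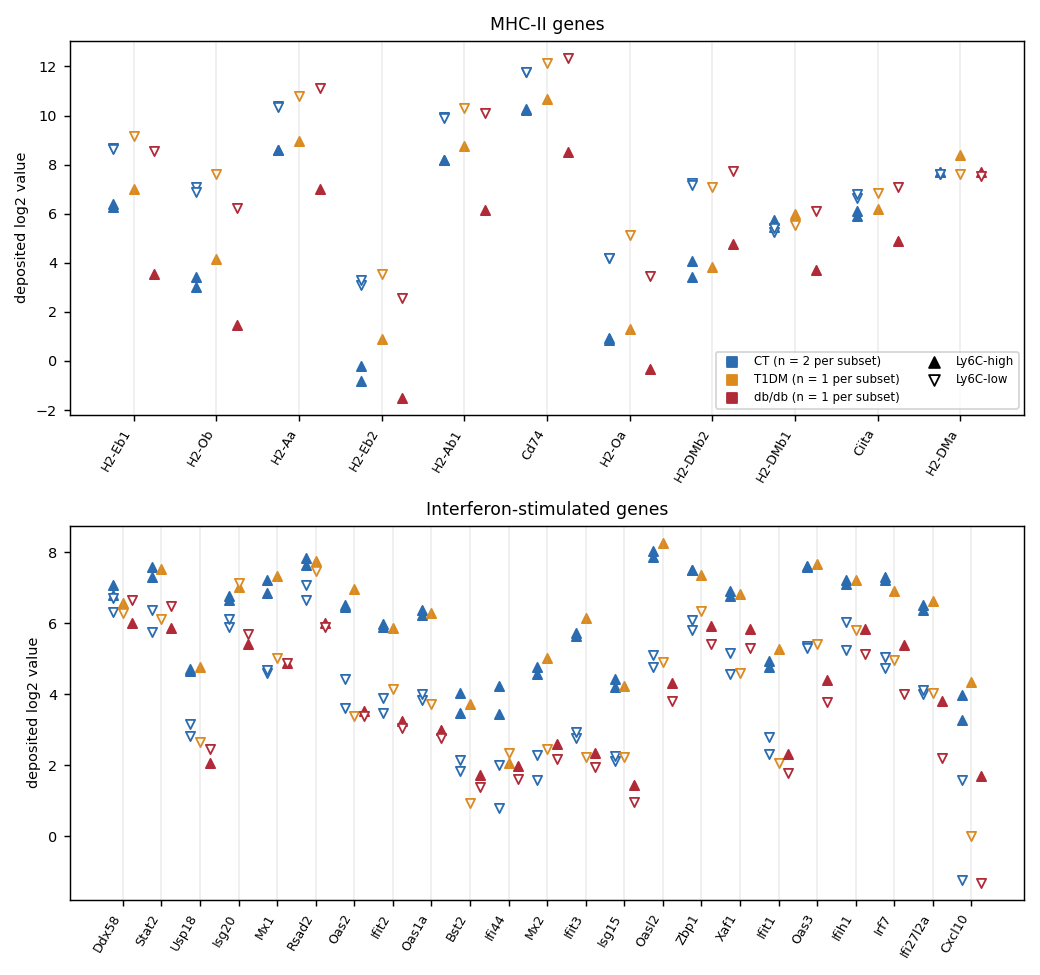
Deposited log2 value (y axis) of the 11 MHC-II genes (top) and 23 of the 24 interferon-stimulated genes (bottom) in each of the 8 libraries, with filled triangles for Ly6C-high and open triangles for Ly6C-low MCs of CT (blue), T1DM (orange) and db/db (red) mice. The red filled triangles fall below the other filled triangles for H2-Eb1, H2-Aa, H2-Ab1 and Cd74 and for nearly all interferon-stimulated genes, where the red pair lies close together; the order within that pair depends on scaling (20 of 24 higher as deposited, 13 of 24 with equal sums).

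B cell markers lay at the lower edge of the comparison. All 20 B cell markers were below -1, with a median of -5.18 against -4.13 in CT and -3.83 in T1DM mice, and limma called 17 lower in CT mice. Cd79a, a signalling chain of the B cell receptor, was 2.68 and 9.08 (log2FC -6.41, CT -4.71, limma adjusted p = 0.00178), and Ms4a1, encoding CD20, was 2.66 and 8.84 (-6.18, CT -5.06, limma adjusted p = 0.00449). All 12 immunoglobulin constant genes were below -1, with a median of -4.83. On the linear scale the B cell markers summed to 8655 in db/db Ly6C-low and 411 in db/db Ly6C-high MCs, against 7123 to 8153 and 571 to 830 in the other Ly6C-low and Ly6C-high libraries. No B cell marker was missing from the table. The B cell sum of the db/db Ly6C-high library was thus the lowest of all, beside the lowest MHC-II sum, and its part in the MHC-II values was not tested.

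NK cell markers were lower in 15 of 16, with a median of -2.36 (CT -2.88, T1DM -2.93). They summed to 58.7 and 301 in db/db Ly6C-high and Ly6C-low MCs, under the 162 to 208 and 1105 to 1617 of the other libraries. Ncr1, encoding the NK receptor NKp46, was 1.64 and 4.45 (log2FC -2.81, CT -2.79), and Gzma, encoding granzyme A, was 3.36 and 6.03 (-2.67, CT -2.95). Klra8, which shares 55.0% of its 31-base words with other genes, was near the bottom of the scale in both db/db libraries (-0.49 and -1.37). All 8 basophil markers were below -1, with a median of -4.49 against -0.69 in CT and -3.65 in T1DM mice. They summed to 177 in db/db Ly6C-low MCs against 25.6 to 66.2 in the other Ly6C-low libraries. Hdc, the histidine decarboxylase that makes histamine, was 0.36 and 5.44, and Cpa3, a mast cell and basophil protease, was -1.91 and 3.31. For 2 of the 8 basophil markers the db/db Ly6C-high value was the lowest of the T1DM and db/db libraries, tied with another of these.

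T cell markers were weakly detected, with 11 of 20 below -1 and sums of 68.2 and 145, and of the eosinophil markers 5 of 9 were in the table, 4 of them below -1, with sums of 11.8 and 107. Of 8 DC markers 5 were below -1, and their sums were 89.7 in db/db Ly6C-high against 132 to 161 in the other Ly6C-high libraries and 256 in db/db Ly6C-low against 135 to 235 in the other Ly6C-low libraries. Cd209a, encoding the lectin DC-SIGN that marks monocyte-derived DCs, was 2.70 and 6.67 (log2FC -3.98) with 5.14 to 6.48 in the CT and T1DM libraries. Xcr1 was not in the table, Clec9a, a defining marker of cross-presenting DCs, was 1.09 and 4.60, and Flt3 was 5.76 and 5.71. Platelet markers (1 of 14 above 1, none below -1; sums 298 and 341) and erythroid markers (0 of 8 past 2-fold; sums 16857 and 16775) had close sums in both subsets. The 10 pan-monocyte markers were all higher, 6 of them above 1, and summed to 57439 in db/db Ly6C-high and 10423 in db/db Ly6C-low MCs, most of it Lyz2. The part of these other cell types in the genes that were lower in Ly6C-high MCs was not tested.

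**Figure D4:**
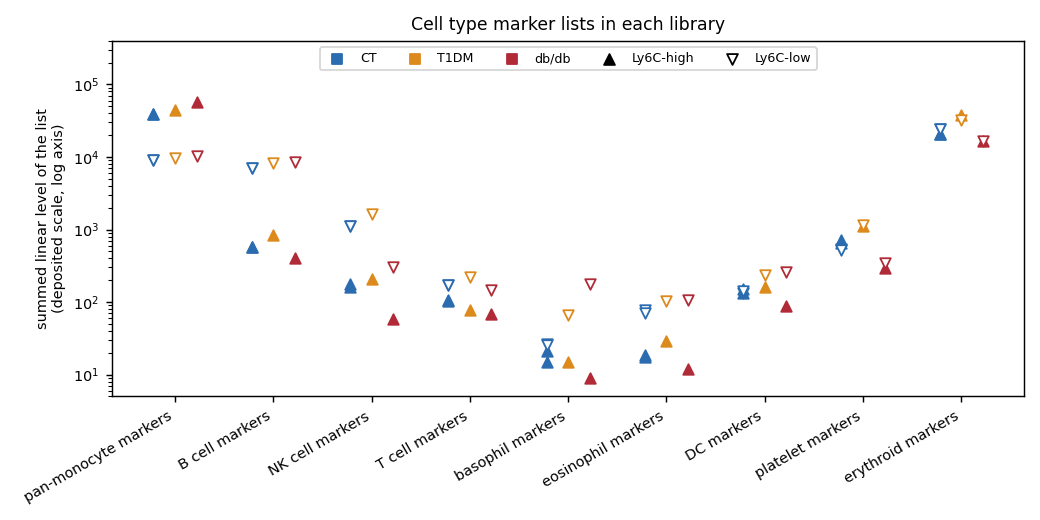
Summed linear level of each cell type marker list (y axis, log scale, 2 raised to the deposited value and summed over the list) in each library, with filled triangles for Ly6C-high and open triangles for Ly6C-low MCs of CT (blue, 2 libraries a subset), T1DM (orange, 1) and db/db mice (red, 1). B, NK, T cell, basophil and eosinophil lists sit higher in Ly6C-low MCs of db/db mice, as for B cell markers with 8655 against 411, while platelet and erythroid lists lie close together.

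Of the 25 genes with the largest negative log2FC at a mean of at least 5, limma called 22 lower in CT mice, and the list was dominated by B cell genes such as Pax5 (-5.66), Pou2af1 (-5.56), Cd22 (-5.38), Spib (-5.34), Cd79b (-4.68), Igkc (-4.60), Ebf1 (-4.04), Igha (-3.90) and Ighm (-3.77). Ikzf3 (-5.34), Pik3c2b (-5.41), Ets1 (-4.75), Ccnd2 (-4.74), Cd2 (-4.68) and Rasgrp1 (-4.19), all known in lymphocytes, were there too. Scd1, the stearoyl-CoA desaturase that makes monounsaturated fatty acids, was 3.05 in db/db Ly6C-high and 8.62 in db/db Ly6C-low MCs, a log2FC of -5.58. In CT mice Scd1 was 3.73 and 3.75 in Ly6C-high and 8.57 and 8.51 in Ly6C-low MCs (-4.80 ± 0.08, SE, n = 2 per subset, limma adjusted p = 0.00178), and in T1DM mice 4.71 and 8.29. The groups of Ly6C-high and Ly6C-low libraries did not overlap for Scd1. Cd55, the decay-accelerating factor that protects cells from complement, was 2.99 and 8.11 (log2FC -5.12, CT -4.01, limma adjusted p = 0.00211).

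Lipid handling genes leaned to the Ly6C-low subset at their extremes, with 2 of 22 above 1 and 8 below -1. Beside Scd1 and Cd36, Pparg, a nuclear receptor for fatty acids, was 2.16 and 5.46 (log2FC -3.30, CT -1.77, limma adjusted p = 0.00918). Fabp4, a fatty acid carrier, was 1.38 and 4.34 (-2.96, CT -2.90, limma adjusted p = 0.00578), and the cholesterol exporter gene Abca1 was 5.72 and 6.84 (-1.12, CT -1.81, limma adjusted p = 0.00985). Limma called 6 of the 22 lower in CT mice and none higher. Lpl, lipoprotein lipase, ran against the other mouse groups. It was 6.27 in db/db Ly6C-high and 8.14 in db/db Ly6C-low MCs (log2FC -1.87), whereas CT held 6.62 and 6.74 (high) and 5.60 and 5.71 (low), and T1DM 6.38 and 5.35. The db/db Ly6C-low library held the highest Lpl value of the 8. Of 18 cholesterol synthesis genes 1 was above 1 and 4 below -1, Srebf2, their main transcription factor, being 5.59 and 7.12 (log2FC -1.52).

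Mitochondrial respiratory chain genes, whose proteins pass electrons to oxygen and make ATP, were higher in db/db Ly6C-high MCs for all 78 members, with log2FC from 0.04 to 1.56, a median of 0.96 and 34 above 1. With equal sums 71 of 78 were higher and 4 above 1, at a median of 0.60, against a shift of the all-gene median to -0.39. The medians of CT and T1DM mice were 0.56 and 0.78, and limma called none in CT mice. Uqcrq, a subunit of complex III, was 5.86 and 4.30 (log2FC 1.56), and Ndufa2, a subunit of complex I, was 4.38 and 2.83 (1.55). For 42 of the 78 the db/db log2FC lay above all 5 CT and T1DM values, though for none by more than 1 (25.4% and 2.83% of all genes). Cytosolic ribosomal protein genes were higher in 70 of 83 with a median of 0.36, but in 41 of 83 with a median of -0.00 under equal sums, so no direction is given for them.

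Glycolysis genes gave 8 of 24 above 1 and 2 below -1, with a median of 0.61. The genes above 1 included Pkm (9.66 and 8.07, log2FC 1.58), pyruvate kinase, Aldoa (8.19 and 6.74, 1.45), aldolase A, and Gapdh (9.66 and 8.60, 1.06), and with equal sums 3 of the 24 were above 1. The glucose transporter gene Slc2a3 was 4.61 and 5.92 (-1.31). NADPH oxidase genes, which make superoxide, were higher in all 7 with 4 above 1, among them Cybb (11.90 and 10.72, log2FC 1.18), the catalytic subunit, while with equal sums 6 of 7 were higher and none above 1. The NRF2 list holds target genes of the antioxidant response and the regulator genes Nfe2l2, which encodes NRF2, and Keap1. Of its members 7 of 14 were above 1 (3 of 14 with equal sums) and none below -1. Hmox1, haem oxygenase, was 6.48 and 4.75 (log2FC 1.73), and Gsr, glutathione reductase, was 9.78 and 7.91 (1.87, CT 1.41, called by limma). Of 22 insulin and leptin signalling genes 1 was above 1 and 2 below -1, with a median of 0.31 that became -0.05 with equal sums. Lepr, the gene mutated in db/db mice, was barely detected, at -2.01 and 2.23 in db/db and -1.15 to 4.23 in the CT libraries.

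Genes of innate sensing leaned to the Ly6C-high subset. Of 19 Toll-like receptor and adaptor genes 9 were above 1 and 1 below -1, with a median of 0.97 (4 above 1 and a median of 0.61 with equal sums). Tlr5, the receptor for flagellin, was 4.81 and 0.37 (log2FC 4.44), Cd14, the co-receptor for lipopolysaccharide, was 4.68 and 2.42 (2.25), and Tlr2 was 6.86 and 5.35 (1.51), whereas Tlr3 was 2.37 and 4.07 (-1.71). Limma called Myd88 alone in CT mice (1.39; 1.40 in db/db). Of 13 complement genes 6 were above 1 and 1 below -1. C3 was 10.83 and 7.39 (log2FC 3.44, CT 3.01, limma adjusted p = 0.00376), and Cfp, encoding properdin, was 6.87 and 5.16 (1.71, CT 0.26). Of 16 C-type lectin receptor genes 8 were above 1 and 5 below -1, from Clec5a (5.73 and 1.85, log2FC 3.88) to Cd209a. Of 10 chemoattractant receptor genes 6 were above 1 and 1 below -1, with Ptafr, the receptor for platelet-activating factor, at 7.41 and 4.70 (2.71, CT 1.81, called by limma).

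None of 16 NF-kB pathway genes was above 1 and 1 was below -1 (Nfkbie, -1.24), with a median of -0.15. Of 13 inflammasome genes 3 were above 1, Mefv (2.49), Nlrp3 (1.65) and Pycard (1.01), and the median of the list turned from 0.21 to -0.15 with equal sums. Il1b was 5.76 and 5.97 (log2FC -0.21). Of 34 chemokine and cytokine genes 9 were above 1 and 14 below -1. Many were weakly detected, and 22 had a mean of at least 1 over the 8 libraries. Of these 22, 8 were above 1 and 6 below -1, and the median was 0.06 against -0.22 for all 34. Ccl6 (1.52) and Ccl9 (1.77), well detected myeloid chemokines, and Ccl2 (2.67 and -0.96, log2FC 3.63), the ligand of CCR2, were higher in Ly6C-high MCs. Csf1, the monocyte survival factor, was 0.13 and 4.93 (log2FC -4.79), with 2.33 to 3.65 in the 6 other libraries. Of 40 cytokine receptor genes 7 were above 1 (3 with equal sums, which turned the median from 0.15 to -0.21), led by the interleukin-1 decoy receptor gene Il1r2 (3.21), and 14 below -1, many of them lymphoid (Il9r -6.60, Il21r -2.97, Il2rb -2.30). Of 18 trafficking receptor genes 3 were above 1, among them Ccr2 and Ccr1 (6.81 and 4.05, 2.77), and 8 below -1, led by S1pr1 (-6.01), which guides lymphocytes out of lymphoid tissue.

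The checkpoint ligand list, which also holds the receptor gene Cd40, gave 3 of 15 above 1 and 4 below -1. Cd274, encoding PD-L1, was 4.30 and 7.55 (log2FC -3.25, CT -2.04, called by limma), and Pdcd1lg2, encoding PD-L2, was 0.35 and 4.80 (-4.45). Vsir, encoding the inhibitory ligand VISTA, was 8.82 and 7.14 (log2FC 1.68, CT 1.67). Of 17 checkpoint receptor genes 3 were above 1 and 10 below -1, most of them T cell and NK cell genes such as Ctla4 (-4.56). These lists, like the cytokine lists, follow themes of the study and are not independent evidence. Matrix and protease genes gave 9 of 20 above 1 and 5 below -1, and coagulation genes 6 of 13 above 1 and none below -1. Beside F13a1, F10, encoding factor X, was 7.95 and 5.51 (log2FC 2.44, CT 2.07, called by limma), and Thbs1, encoding thrombospondin 1, was 8.75 and 6.79 (1.96, CT 0.45).

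Thbs1 belongs to the genes whose subset difference in db/db mice lay farthest from those of the other mice. Among 5228 genes with a mean of at least 5 over the 8 libraries, 1471 (28.1%) had a db/db log2FC above all 5 CT and T1DM values and 1368 (26.2%) below all 5. The distance to the nearest of the 5 was over 1 for 20 genes (0.383%) above and 70 (1.34%) below. This distance has no error and was not tested. Without the T1DM libraries, 35 and 122 genes were past 1.

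The 15 farthest above were Vcan (distance 1.62), Itpr3 (1.50), Zfp36l1 (1.48), Cd38 (1.48), Thbs1 (1.47), Gbp7 (1.34), C5ar1 (1.33), Tnfaip2 (1.32), Aoah (1.30), Ctsd (1.27), Notch1 (1.27), Id2 (1.26), Nfia (1.26), Ms4a4b (1.21) and Chsy1 (1.15). They were of several kinds. C5ar1, the receptor for complement C5a, was 7.22 and 6.04 in db/db mice (log2FC 1.18), with 5.48 and 5.32 (high) and 5.63 and 5.65 (low) in CT and 4.35 and 4.92 in T1DM mice. Both db/db libraries held more C5ar1 than any other library, and the subset order was turned around. Notch1 was 8.46 and 5.46 (log2FC 3.00, CT 1.43, limma adjusted p = 0.0058, T1DM 1.73). For Itpr3, Zfp36l1 and Cd38, the log2FC was still negative in db/db mice (-0.44, -0.55 and -2.30) but less so than in CT mice (-2.04, -2.20 and -3.97).

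The 15 farthest below were Cd209a (distance -3.51), Sdc3 (-2.98), Lpl (-2.78), H2-Eb1 (-2.59), Dpp4 (-2.48), H2-DMb1 (-2.45), H2-Aa (-2.32), Cd74 (-2.29), Oasl2 (-2.25), H2-Ab1 (-2.19), Mx1 (-2.18), Slamf7 (-2.17), Ifi213 (-2.02), Phf11d (-1.98) and Itga1 (-1.83). Besides MHC-II genes and ISGs they held Sdc3, encoding the heparan sulphate proteoglycan syndecan 3, which was 2.70 and 4.47 in db/db mice (log2FC -1.77). CT libraries held 7.01 and 7.00 of Sdc3 in Ly6C-high and 5.32 and 5.28 in Ly6C-low MCs (1.70, limma adjusted p = 0.00498), and T1DM libraries 7.26 and 6.05. Both db/db libraries were below every other library of Sdc3. Dpp4, encoding the incretin-cleaving peptidase CD26, was 3.54 and 6.46 (log2FC -2.92), against 5.49 to 6.40 in all CT and T1DM libraries. For Dpp4 and Cd209a the db/db Ly6C-high library was the outlying library of the 8. Cd209a is itself a DC marker, so the lower sum of the DC markers in that library is not independent of it.

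**Figure D5:**
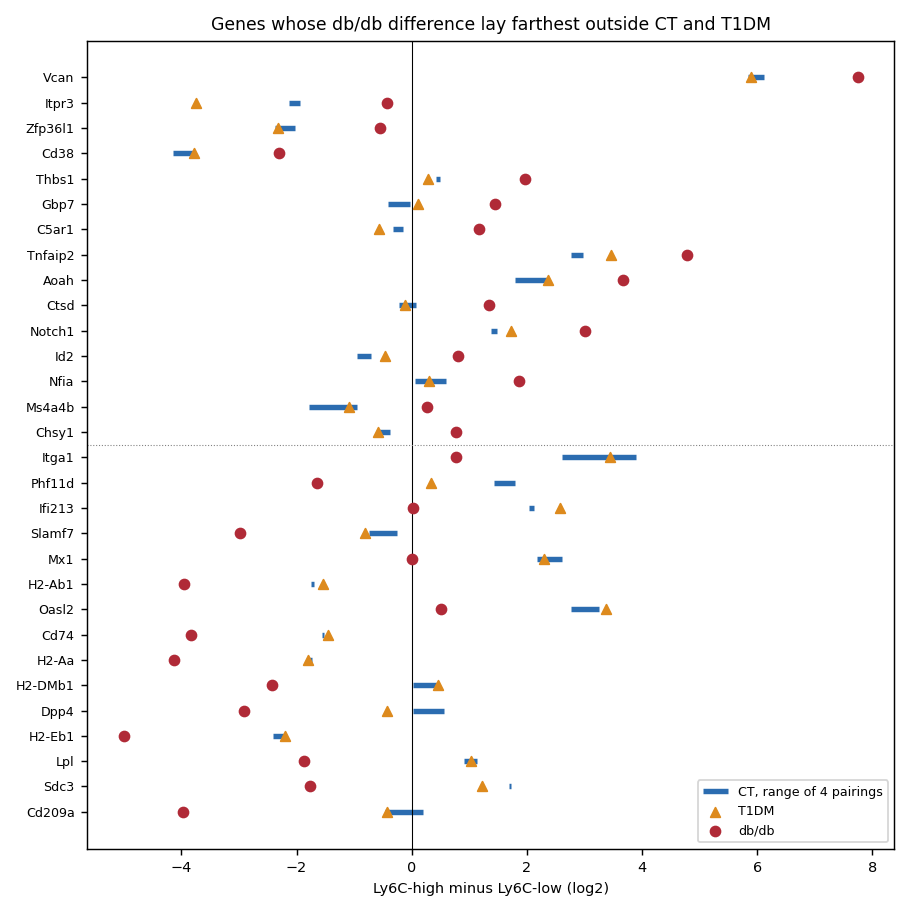
Log2FC (Ly6C-high minus Ly6C-low, x axis) of the 15 genes farthest above (top) and the 15 farthest below (bottom) the other mouse groups, with red circles for db/db (1 library a subset), orange triangles for T1DM (1 library a subset) and blue bars over the 4 pairings of CT libraries. Vcan (7.74 in db/db against 5.83 to 6.12 in the CT pairings and 5.89 in T1DM mice) tops the upper block, and Cd209a (-3.98) has the largest distance in the lower block.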

How the data were processed

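RNA-Seq libraries of sorted blood MCs were quantified by the authors with Kallisto 0.45, and tximport 1.12.3 summarized transcripts to genes under R version 3.6.1. The submitters' processing notes name mm10. The authors deposited log2 expression values, from -4.05 to 15.64, for 16486 entries. The scaling between libraries, the filter and the division by length are not given in the sources used here, and depth per gene is unknown, so levels were compared within a gene. All columns were matched to samples by name. Entries whose symbols had turned into dates (21) were counted, not named.

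For db/db mice the log2FC was the difference of 2 deposited values, without a test. CT subsets were compared with limma 3.58.1 (lmFit, eBayes with trend, R 4.3.3) over all genes with Benjamini-Hochberg adjustment, and the fit was checked on simulated data. The distance of a db/db log2FC from CT and T1DM mice was taken to the nearest of 4 CT pairings and T1DM, and is 0 inside their range. Named genes were list members, the 25 largest log2FC a direction (mean of at least 5 in db/db libraries), the 15 largest distances a direction (mean of at least 5 over 8 libraries), and H2-Ea-ps, Lepr and Ddx3y as checks. The members, lists and rule were chosen with earlier results of these data known. In RefSeq GRCm38.p6, 15721 of 16485 symbols were found, and coordinates and promoter sequences came from it. Shared 31-base words were counted over 749 named genes in GENCODE M21 transcripts, and over 50% of words were shared for 20 of them. Alternatives were a filter (mean of at least 1), a pseudocount of 1, quantile normalization, equal sums (1000000), other limma settings and leaving out libraries. Python 3.11.15, pandas 2.3.3, numpy 2.4.6 and matplotlib 3.10.9 were used.

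As a check of the pools, the Y-linked gene Ddx3y was 6.10 and 5.40 in db/db, 5.61 and 6.30 in T1DM and 2.41 to 3.64 in CT libraries. Every CT library was thus below every T1DM and db/db library, although CT mice were male. The cause of this split was not tested. Xist, also a check in the rule, was not in the table. Some list members that entered the counts are not reported here.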

Additional observations from a re-analysis of the deposited data

Results flagged for a closer look

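For 8 genes named by their distance, the subset difference in db/db mice pointed one way and every CT pairing and the T1DM difference the other way. Genes of this kind made up 159 of 5228 well detected genes (3.04%) with a higher value in db/db Ly6C-high MCs and 236 (4.51%) with a lower one, of which 1 and 9 were past 2-fold. With equal sums 6 of the 8 still pointed the other way. Those that did not were Ms4a4b, with a db/db log2FC of -0.10 there, and H2-DMb1, whose CT pairings then ran from -0.27 to 0.19. These 8 were selected for their distance, each db/db value rests on 1 library a subset, and the difference between mouse groups was not tested for any of them.

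Higher in db/db Ly6C-high MCs were C5ar1, the C5a receptor, with a log2FC of 1.18 (CT -0.24, T1DM -0.58), and Id2, an inhibitor of basic helix-loop-helix factors, with 0.80 (CT -0.84, T1DM -0.46). Chsy1, a chondroitin synthase, had 0.77 (CT -0.49, T1DM -0.58), and Ms4a4b, a membrane protein of lymphocytes, had 0.26 (CT -1.37, T1DM -1.10).

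Lower in db/db Ly6C-high MCs were Sdc3, with a log2FC of -1.77 (CT 1.70, T1DM 1.21), Lpl, with -1.87 (CT 1.02, T1DM 1.03), and H2-DMb1, with -2.42 (CT 0.24, T1DM 0.45). Phf11d, an interferon-induced gene, had -1.65 (CT 1.61, T1DM 0.33). Limma called only Sdc3 of these 8 in CT mice.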

How the results depend on the processing

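The db/db counts rest on 1 library a side. Genes above 1 numbered 1864 as deposited and 1391 to 2313 with the filter, the pseudocount and quantile normalization, but 1033 with equal sums. Genes below -1 numbered 2929 as deposited, 1532 with the filter and 1750 with the pseudocount, both of which act on weakly detected genes, and 2071 to 4337 with either rescaling.

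The CT limma calls (346 higher, 235 lower) were not stable. They became 834 and 1102 at an adjusted p limit of 0.05, 619 and 470 with the filter, 207 and 360 with equal sums, 391 and 282 with the pseudocount and 349 and 343 with quantile normalization. Without the variance trend there were 0 and 0 calls (lowest adjusted p 0.0167; 2743 and 3067 genes at an unadjusted p under 0.05). Leaving out any 1 CT library gave a range of 0 to 0 (lowest adjusted p 0.0633 to 0.0847; 2383 to 2573 and 2098 to 2840 genes at an unadjusted p under 0.05), with the lone library assumed to vary like the other subset. With the CT replicate number as a block limma gave 0 and 0 calls (lowest adjusted p 0.0157; 2821 and 2692 genes at an unadjusted p under 0.05). The labels link the 2 CT subsets only by replicate number. Over genes, the difference between replicates 1 and 2 in Ly6C-high MCs correlated at 0.01 with that in Ly6C-low MCs. This single value cannot show whether same-numbered libraries share a pool. The causes were not tested. No paired analysis was possible for db/db mice because they have 1 library a subset.

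Distances past 1 numbered 20 above and 70 below as deposited, 21 to 28 and 78 to 82 without any 1 CT library, 20 and 66 with quantile normalization or the pseudocount, and 35 and 122 without T1DM mice. For single genes, 127 of 200 log2FC and 170 of 210 distances moved by less than the CT spread and the others by more. For log2FC, the filter removes genes and changes no value, so it could not move any of the 50 genes. None of these log2FC or distances changed sign, but the genes were chosen for large values, so this is no test of stability. Of 52 list medians, 14 changed sign under at least 1 alternative, 9 of them with equal sums, and 116 of 208 recomputed medians moved past that spread.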

Other observations

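Cathepsin and cystatin genes, which encode lysosomal proteases and their inhibitors, were above 1 for 7 of 16 (4 with equal sums) and below -1 for 4. Ctsl was 7.41 and 4.96 in Ly6C-high and Ly6C-low MCs (log2FC 2.45), Ctsc, which activates granule proteases, was 9.69 and 7.58 (2.11, CT 1.49, called by limma), and Ctsd was 8.33 and 6.98 (1.35, CT -0.08, T1DM -0.11). Ctsw, a protease of NK and T cells, was 0.16 and 2.28 (-2.13). Fc receptor genes split, with 3 of 8 above 1 and 3 below -1, among them Fcgr1 (2.17) and Fcgr3 (2.16) higher and Fcgr4 (-2.30) lower in Ly6C-high MCs, and limma called all 3 the same way in CT mice. Trem2, a lipid-sensing receptor of macrophages, was 5.66 and 2.50 (3.16, CT 3.38, T1DM 3.21).

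Cell cycle genes were mostly weakly detected, with 3 of 31 above 1 and 12 below -1, a median of -0.75 and no limma call in CT mice. Of 15 BCL2 family genes 4 were above 1 and 4 below -1 (1 and 5 with equal sums). Bcl2, which protects cells from apoptosis, was 4.33 and 7.23 (log2FC -2.90, CT -1.97, called by limma), and Bcl2l11, encoding the death-promoting protein BIM, was 7.18 and 5.53 (1.65, CT 0.75). Bcl2 is also high in B cells, whose markers were lower in Ly6C-high MCs, and that part was not tested. The Bcl2a1 copies share 79.6% to 89.1% of their 31-base words with other genes and cannot be told apart. Of 21 immediate-early genes 4 were above 1 (1 with equal sums), among them Fos (7.46 and 5.13, 2.33), and 7 below -1, among them Jun (3.66 and 5.38, -1.73). Of 16 eicosanoid genes 6 were above 1 and 3 below -1, and those above 1 included Alox5ap (10.06 and 8.04, 2.03, CT 2.36, called by limma), the partner of 5-lipoxygenase, and Pla2g4a (5.77 and 4.29, 1.48, CT -1.03, T1DM -0.39), the cytosolic phospholipase A2. Of 11 scavenger receptor genes 4 were above 1 and 4 below -1. Mrc1, the mannose receptor of macrophages, was 3.34 and 5.86 (-2.52, CT 0.62, T1DM 0.06), and Olr1, a receptor for oxidized lipoprotein, was 4.09 and 6.14 (-2.05, CT -0.01, T1DM 0.76). The difference between mouse groups was not tested.

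Past 2-fold in db/db Ly6C-high MCs were 2 higher and 2 lower of 16 integrin genes (1 and 6 with equal sums), 4 higher and 3 lower of 12 CD300 and TREM receptor genes, 0 higher and 1 lower of 16 MHC-I presentation genes (Tap2, -1.71), 2 higher and none lower of 16 unfolded protein response genes, and 0 higher and 2 lower of 6 plasmacytoid DC markers. Of all genes, 11.3% were more than 2-fold higher and 17.8% more than 2-fold lower. The integrin (12.5% and 12.5%), unfolded protein response (12.5% and 0%) and MHC-I (0% and 6.25%) counts were near or under these shares. Among genes with a mean of at least 5 in the db/db libraries the shares were 12.2% higher and 4.37% lower. The lower shares of the integrin and MHC-I lists were above that 4.37%. With equal sums the medians of the CD300 and TREM, BCL2, eicosanoid and unfolded protein response lists turned from above 0 (0.28, 0.17, 0.26 and 0.24) to below 0 (-0.09, -0.19, -0.10 and -0.12).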
